A study of Mus musculus with 8 samples.

Results

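The 10 genes described here are core parts of Notch signalling: the receptors Notch1, Notch2, Notch3 and Notch4, the ligands Dll1, Dll4, Jag1 and Jag2, and the target genes Hes1 and Hey1. They were chosen by name, and all 10 were found among the 32285 genes of the count table. The table came from sorted lung cells of wild-type (WT) C57BL6/J mouse pups aged 5 days. Pups were kept after birth in 65% oxygen (Hyperoxia, 4 libraries) or in 21% oxygen (Air, 4 libraries). The pups of both groups had been exposed to lipopolysaccharide at gestation day 14, and the study uses these exposures to model bronchopulmonary dysplasia, a lung disease of preterm infants. Lungs were frozen, thawed and sorted for endothelial, epithelial and immune cells, so the numbers of cells reflect the sort and not the lung. The column names of the table matched 0 of the 8 library labels, so no cell could be given to hyperoxia or air, and those groups were not compared. All 11806 cells were treated as 1 pooled sample, and the values below describe which cells held each transcript.

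Notch receptors and their ligands are membrane proteins on neighbouring cells. Ligand binding leads to cleavage of the receptor, and the freed intracellular domain joins the DNA-binding protein RBPJ in the nucleus, where genes such as Hes1 and Hey1, which encode transcriptional repressors, are switched on. In blood vessels Dll4 and Notch1 are known for restraining sprouting, Jag1 and Hey1 for arterial identity and vessel wall assembly, and Notch4 for its restriction to endothelium. Notch2 is known for its part in myeloid differentiation, including that of monocytes, and Notch3 for its role in mural cells around vessels.

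Cells were grouped by counts of unique molecular identifiers (UMIs, each standing for 1 captured transcript) of a few genes outside the Notch pathway. The endothelial gate (Cdh5 and Cldn5) held 413 cells, of which 19 met an arterial gate (Gja5, Bmx), 104 a Car4 capillary gate (Car4, Ednrb) and 161 a general capillary gate (Gpihbp1, Plvap, Kit). A further 105 met none of these sub-gates and 24 met several. The AT2 gate (alveolar type 2, Sftpc) held 697 cells, the AT1 gate (alveolar type 1, Rtkn2) 102, the alveolar macrophage gate (Ear1, Marco) 912, the monocyte gate (Ly6c2 and F13a1, or Ace and Adgre4) 3372 and the T gate (Cd3e, Trac) 612. The remaining 5322 cells met none of the gates, and 376 that met several compartments' gates were set apart. Markers not used for gating were highest in their own gate for 5 of 5 genes in the endothelial, Car4 capillary, AT2, AT1, alveolar macrophage, monocyte and T gates, for 4 of 5 in the arterial gate and for 2 of 4 in the general capillary gate. The table held 77020720 UMIs, with a median of 4425 per cell. Cell barcodes came in 8 runs of alphabetical order, with 2574027 to 17841702 UMIs each and 12 barcodes shared between runs. A run may be a library, but nothing in the labels says so, and runs are used only to show how far a value moves within the table.

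Levels are given as UMIs per 1000000 UMIs of the group (CPM) with the range over runs that held at least 10 cells of the group. Intervals are exact 95% intervals for counting error only, and with 1 pooled sample no p-value is given. A gene is called higher or lower in a group at a fold of at least 4 with at least 10 UMIs in the higher group, over the 16777 genes with at least 30 UMIs in all cells, among them all 10 of the genes described here. The kit tags the ends of transcripts, so levels are compared between cells for the same gene and not between genes. A lower CPM cannot be told apart into fewer expressing cells and less RNA per cell except where shares of cells are given.

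Of the 10 genes, 8 have a promoter sequence in the RefSeq table (build GRCm38.p6, 250 bases before to 50 after the start site). Hes1 and Hey1 were not matched there. Shown are the windows of Dll4 and Notch4, whose levels over the gate groups ran closest together among the receptors and ligands, and of Jag1, which stood apart in the arterial gate. Capitals mark matches to the AP-1 motif TGACTCA or to the RBPJ motif TGGGAA, searched on both strands.
Dll4, chr2:119325534-119325833, plus strand: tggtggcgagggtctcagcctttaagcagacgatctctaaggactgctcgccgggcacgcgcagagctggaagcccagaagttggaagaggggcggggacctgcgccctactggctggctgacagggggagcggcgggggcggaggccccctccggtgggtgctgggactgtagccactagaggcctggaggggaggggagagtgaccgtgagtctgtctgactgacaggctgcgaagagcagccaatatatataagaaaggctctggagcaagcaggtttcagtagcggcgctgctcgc
Notch4, chr17:34564045-34564344, plus strand: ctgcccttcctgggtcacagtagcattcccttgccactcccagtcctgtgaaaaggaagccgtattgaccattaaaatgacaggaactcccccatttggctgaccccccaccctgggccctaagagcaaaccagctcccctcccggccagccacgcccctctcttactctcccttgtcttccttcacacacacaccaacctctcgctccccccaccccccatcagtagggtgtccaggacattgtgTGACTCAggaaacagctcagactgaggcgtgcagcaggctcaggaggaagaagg
Jag1, chr2:137116471-137116770, minus strand: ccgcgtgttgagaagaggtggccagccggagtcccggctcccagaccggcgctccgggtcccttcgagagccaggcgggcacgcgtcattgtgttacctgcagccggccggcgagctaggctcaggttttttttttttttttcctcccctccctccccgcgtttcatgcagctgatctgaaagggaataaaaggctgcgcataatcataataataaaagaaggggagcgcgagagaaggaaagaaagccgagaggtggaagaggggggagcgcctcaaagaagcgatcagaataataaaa
The AP-1 motif was found in the Notch4 window, beginning 4 bases before the annotated start site, and its last base is the first base of a match to the ETS core AGGAA. It is present in 5.20% of the 32851 promoter windows of the table. TGGGAA was found in 0 of the 9 windows of these genes (Dll1 has 2), against 25.6% of all windows, and AGGAA in windows of Notch1, Notch4, Dll1 and Jag1, against 66.7% of all windows. These are matches of letters in short windows and show no binding.

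In the endothelial gate, 8 of the 10 genes were called higher than in the 11017 cells outside it (cells of several compartments left out), where 8.62% of all genes tested were called higher. The 8 were Notch1, Notch4, Dll1, Dll4, Jag1, Jag2, Hes1 and Hey1. Dll1 and Hey1 had 18 and 24 UMIs in the cells outside the gate. These 2 genes reached the minimum of 30 UMIs only through cells that met the endothelial gate. Notch2 was called lower, as were 6.77% of all genes, and Notch3 was not called. The median log2 fold was 3.49 over the 10 genes and 0.23 over all genes tested. The endothelial gate taken with every cell that met it, including those that met a second gate, held 5.16% of the cells and 3.23% of the UMIs. It held 88.6% of all Dll4 UMIs, 82.4% of Hey1, 76.6% of Dll1, 69.5% of Notch4 and 41.6% of Jag2, against 18.6% of Jag1, 15.6% of Notch1 and 13.8% of Hes1. Its share was 2.43% for Notch3 and 0.940% for Notch2.

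**Figure D1:**
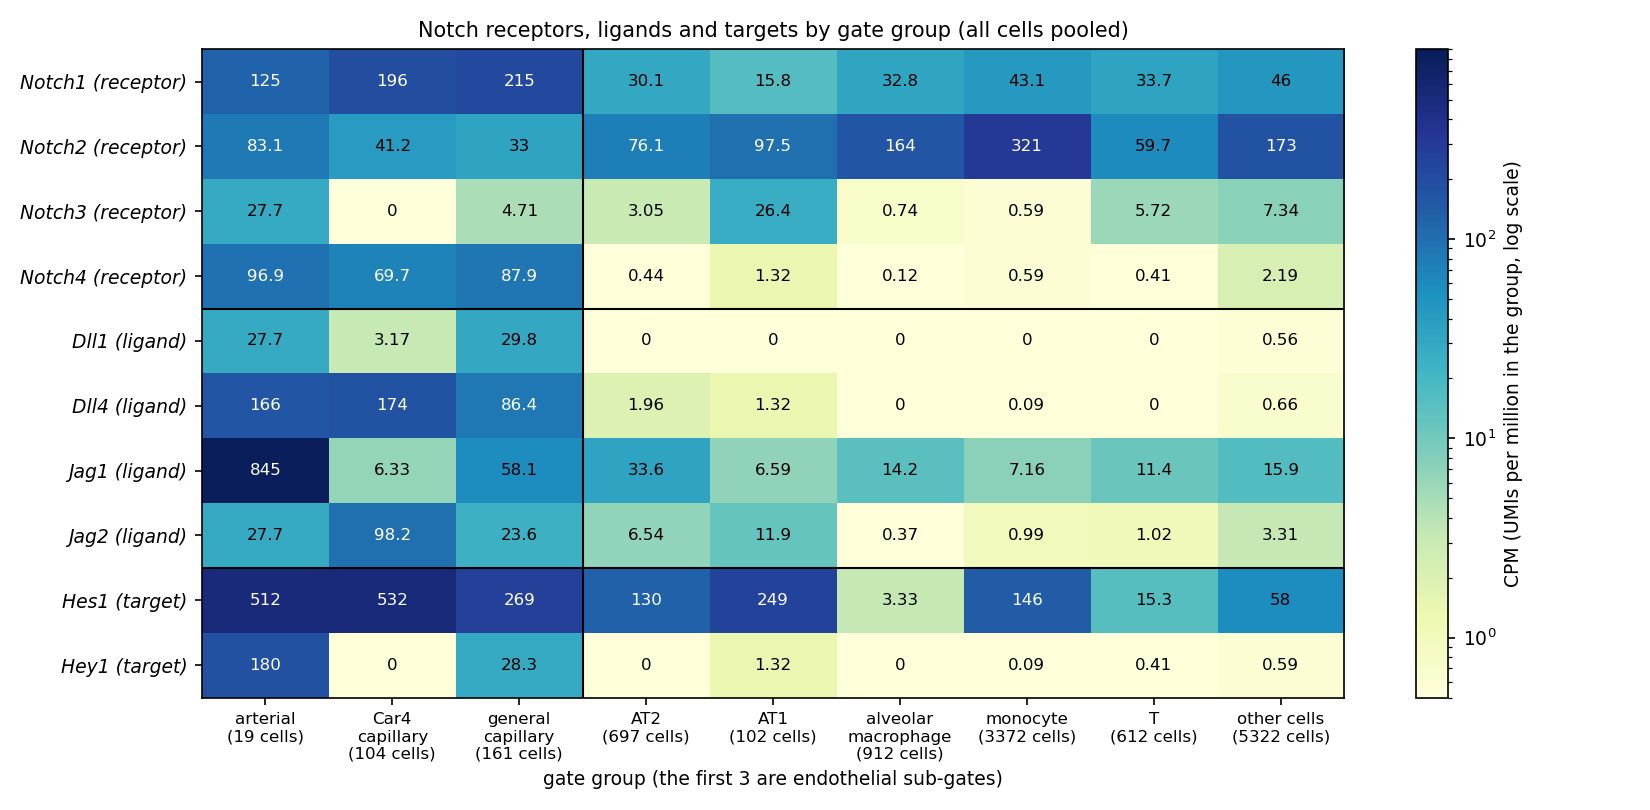
Level of each gene (rows) in each gate group and in the cells outside all gates (columns), in CPM, with the number of cells under each name; colour is on a log scale. Notch4, Dll1, Dll4 and Hey1 are below 3 CPM in the columns right of the line, and Notch2 is highest in the monocyte gate at 321 CPM.

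Set against all other cells one gate group at a time, the 10 genes were called higher in the endothelial sub-gates and, apart from Notch3 in the AT1 gate, in no other gate group. In the arterial gate 4 were called higher (Dll4, Jag1, Hes1, Hey1; 1.86% of all genes) and 0 lower (1.28%). Notch3, Notch4, Dll1 and Jag2 also had folds above 4 there. They were not called because they had 2, 7, 2 and 2 UMIs, below the minimum of 10. In the Car4 capillary gate 5 were higher (Notch1, Notch4, Dll4, Jag2, Hes1; 5.7%) and Notch2 lower (6.23%). In the general capillary gate 6 were higher (Notch1, Notch4, Dll1, Dll4, Jag2, Hey1; 6.53%) and Notch2 lower (6.15%). The AT2 gate had 0 higher (8.79%) and Notch4 lower (14.3%), and the AT1 gate had 1 higher (7.32%) and 0 lower (6.77%). The alveolar macrophage gate had 0 higher (1.11%) and 6 lower (19.2%), the monocyte gate 0 higher (0.948%) and 6 lower (22.3%), and the T gate 0 higher (3.59%) and 5 lower (12.7%).

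Among the receptors, Notch1 had 207 CPM in the endothelial gate against 41.5 CPM outside it, a fold of 5.00 (interval 4.42 to 5.63). Its levels over 6 runs were 96.9 to 298 CPM with a median of 175 in the endothelial gate, and 30.4 to 45.2 CPM with a median of 40.7 outside it. The runs did not overlap, and Notch1 was higher in the endothelial gate in 6 of 6 runs. Notch1 was also present at 15.8 to 46.0 CPM in each of the groups outside the endothelium, with the T gate at 33.7 CPM. Within the cells outside all gates, a neutrophil gate (Cxcr2, Retnlg, Csf3r; 515 cells) had 94.8 CPM of Notch1.

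Notch4, the endothelial receptor, had 74.3 CPM in the endothelial gate against 1.23 CPM outside it, a fold of 60.6 (45.3 to 81.2). The runs gave 25.8 to 111 CPM with a median of 62.2 in the endothelial gate and 0.414 to 2.18 CPM with a median of 1.22 outside it, again without overlap. Notch4 stood at 69.7 to 96.9 CPM in the 3 endothelial sub-gates, and the intervals of the ratios between neighbours in that order included 1. A conventional dendritic gate (Xcr1, Clec9a, Cd209a; 134 of the cells outside all gates) had 18.2 CPM (11.5 to 27.3) of Notch4.

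Notch2 ran the other way. It had 46.2 CPM in the endothelial gate against 203 CPM outside it, 4.39 times lower (3.45 to 5.68), and was lower in 6 of 6 runs (0 to 70.9 CPM in the gate, 143 to 246 CPM outside it). The monocyte gate had the most, 321 CPM, followed by the cells outside all gates at 173 CPM and the alveolar macrophage gate at 164 CPM, whose ratio had an interval that included 1. The AT1, arterial, AT2 and T gates followed at 97.5, 83.1, 76.1 and 59.7 CPM, and the Car4 and general capillary gates were last at 41.2 and 33.0 CPM. The call for Notch2 is near its limit: it was lost without run 7 (log2 fold -1.81) and when cells of several gates were kept in the first gate they met (log2 fold -1.81).

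**Figure D2:**
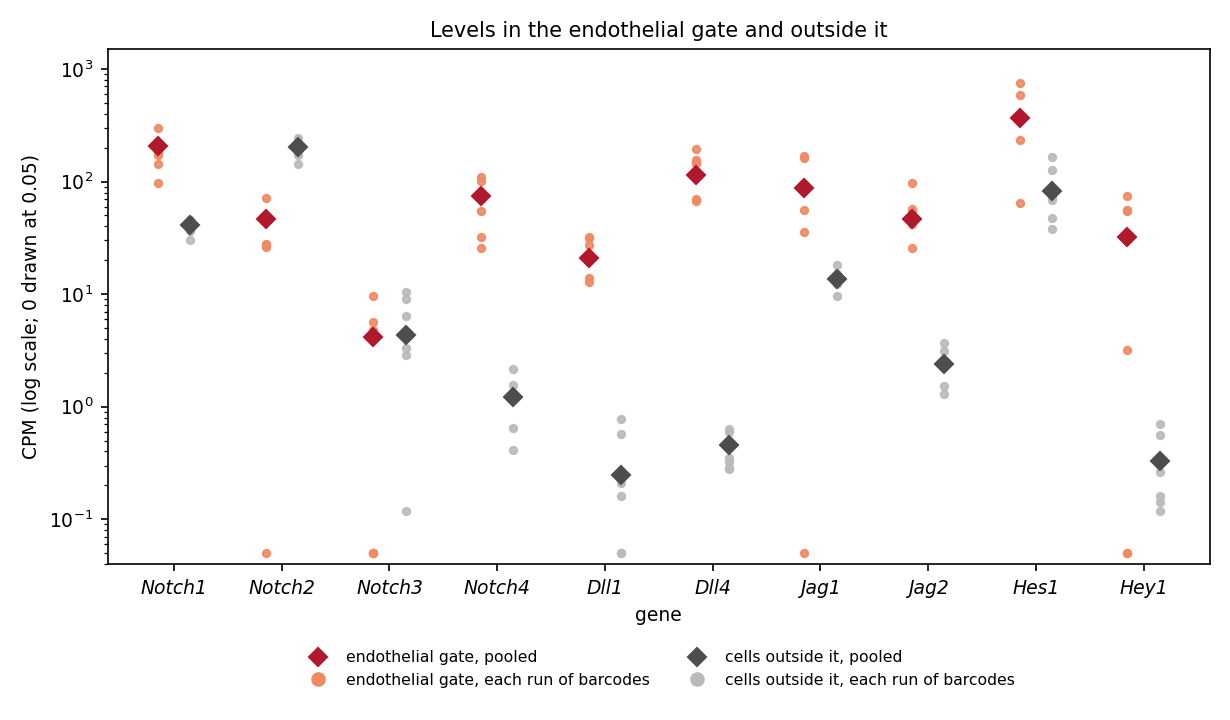
CPM of each gene (log axis, 0 drawn at 0.05) in the endothelial gate (red, left of each pair) and in the cells outside it (grey, right); diamonds are pooled cells and dots the 6 runs of barcodes with at least 10 endothelial-gate cells. The runs do not overlap for Notch1, Notch2, Notch4, Dll1, Dll4 and Jag2, and they do for Notch3, Jag1, Hes1 and Hey1. Overlap was not worked out over all genes, so no share stands beside this list.

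Among the ligands, Dll4 had 116 CPM in the endothelial gate against 0.455 CPM outside it, a fold of 254 (174 to 382). Over the 6 runs it was at 67.6 to 194 CPM with a median of 146 in the gate and at 0.278 to 0.633 CPM with a median of 0.336 outside it. UMIs of Dll4 were found in 26.6% of the 413 endothelial-gate cells, with a median depth of 2362 UMIs per cell. They were found in 0 of the 612 T-gate cells, with a median depth of 5000. A floor of 3 cells, or 0.490%, was taken as the limit of that T-gate share, in place of a Clopper-Pearson bound. With every cell thinned to 2000 UMIs and shallower cells left out, the share was 18.5% of 265 endothelial-gate cells (14.0 to 23.7%) and 0 of 591 T-gate cells.

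Dll1 was sparse, with 77 UMIs in the whole table, and had 21.0 CPM in the endothelial gate against 0.248 CPM outside it, a fold of 84.7 (45.7 to 161). The AT2, AT1, alveolar macrophage, monocyte and T gates held 0 UMIs of Dll1. Jag2 had 46.9 CPM in the endothelial gate and 2.41 CPM outside it, a fold of 19.5 (14.5 to 25.9), and was higher in 6 of 6 runs. In the AT1 gate Jag2 was at 11.9 CPM and in the AT2 gate at 6.54 CPM.

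Jag1 had 88.3 CPM in the endothelial gate against 13.7 CPM outside it, a fold of 6.43 (5.30 to 7.74), and was higher in 5 of 6 runs. The runs ranged over 0 to 168 CPM in the gate and 9.54 to 18.1 CPM outside it, and they overlapped in 1 run, whose 11 endothelial-gate cells held none. Jag1 was found in every gate group, at 6.33 to 58.1 CPM in all but the arterial gate, with 33.6 CPM in the AT2 gate and 14.2 CPM in the alveolar macrophage gate. Among the cells outside all gates it was at 240 CPM in a ciliated gate (Foxj1, Ccdc153, Tmem212), 134 CPM in a secretory gate (Scgb1a1, Scgb3a2) and 76.1 CPM in an innate lymphoid 2 gate (Il1rl1, Gata3, Il13), with 18, 18 and 69 cells. Gates used within the cells outside all gates were not exclusive. In these 3, 6, 6 and 16 cells also met another of them.

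Of the targets, Hey1 followed the endothelium and Hes1 was widespread. Hey1 had 32.2 CPM in the endothelial gate against 0.331 CPM outside it, a fold of 97.4 (58.3 to 167), and was higher in 4 of 6 runs, with 0 UMIs in the endothelial-gate cells of runs 1 and 3. Hes1 had 371 CPM in the endothelial gate against 82.5 CPM outside it, a fold of 4.49 (4.10 to 4.91), and was higher in 6 of 6 runs. The runs spread widely, at 64.4 to 748 CPM with a median of 368 in the gate and at 37.7 to 164 CPM with a median of 70.4 outside it, and so overlapped. Without run 7, which held 247 of the 529 endothelial-gate UMIs of Hes1, the log2 fold was 1.97 and the call was lost. It was also lost with cells thinned to 2000 UMIs, at a log2 fold of 1.98.

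Between the endothelial sub-gates, calls fell on the ligands Jag1, Jag2 and Dll1 and on the target Hey1, and on none of the receptors. The arterial gate had 845 CPM of Jag1 against 48.0 CPM in the other endothelial-gate cells, a fold of 17.6 (12.2 to 25.4), and 180 CPM of Hey1 against 24.4 CPM, a fold of 7.39 (3.57 to 14.4). These 2 genes were the only ones of the 10 called higher in the arterial gate, where 0.972% of all genes were called, and 0 of the 10 were called lower, against 2.03% of all genes. No run held 10 arterial-gate cells, so no values by run are given. UMIs of Jag1 were found in 73.7% of the 19 arterial-gate cells against 15.5% of the general capillary and 1.92% of the Car4 capillary cells. Median depths were 2357, 2850 and 2230.5 UMIs.

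The arterial values rest on few cells. Of the 13 Hey1 UMIs in that gate, 8 came from the 6 arterial-gate cells of run 7, and without that run Hey1 was at 94.0 CPM and was not called, and Notch4 was at 37.6 CPM instead of 96.9. The gate also held other cells' transcripts, with 3864 CPM of the myeloid gene Lyz2 and 291 CPM of the leukocyte gene Ptprc. The 17 arterial-gate cells without Ptprc had 1218 CPM of Jag1 and 283 CPM of Hey1. A further 182 cells met exactly the endothelial and the monocyte gate and so were set apart. Of these, 179 met the monocyte gate through Ace and Adgre4 alone, and 164 of them held no Adgre4 UMI. These 164 cells thus met the monocyte gate through Ace alone, and the main endothelial values leave them out. Whether they are endothelial cells was not tested. With cells of several gates kept in the first gate met, the endothelial gate held 609 cells instead of 413. When cells of several gates were kept in the first gate they met, the arterial gate held 68 cells with 373 CPM of Jag1 and 172 CPM of Hey1, and both genes were still called.

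Car4 capillary cells are known as aerocytes of the gas exchange surface. Under the main gates 3 ligands were called between them and general capillary cells, but none of these calls held under every alternative. Jag2 had 98.2 CPM in the Car4 capillary gate against 23.6 CPM in the general capillary gate, a fold of 4.17 (2.18 to 8.31), and was higher in 5 of 5 runs without overlap (42.5 to 120 against 14.0 to 37.6 CPM). It was the only gene of the 10 called higher there, as were 1.46% of all genes. Jag1 had 6.33 CPM in the Car4 capillary gate against 58.1 CPM in the general capillary gate, 9.18 times lower (2.37 to 78.6), and Dll1 had 3.17 CPM against 29.8 CPM, 9.42 times lower (1.50 to 392), from 1 UMI against 19. Both were lower in 5 of 5 runs and were called lower, as were 3.17% of all genes. Hey1 had 0 UMIs in the Car4 capillary gate against 18 in the general capillary gate, at least 2.98 times lower with the floor of 3 UMIs taken over the Car4 cells.

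Dll4 had 174 CPM in the Car4 capillary gate against 86.4 CPM in the general capillary gate, a fold of 2.02 (1.36 to 2.98), and was higher in 4 of 5 runs. Hes1 had 532 CPM against 269 CPM, a fold of 1.98 (1.59 to 2.47), and was higher in 5 of 5 runs. Neither reached the fold of 4. The intervals for Notch1 (196 against 215 CPM), Notch2 (41.2 against 33.0 CPM) and Notch4 (69.7 against 87.9 CPM) included no difference, at folds of 0.665 to 1.24, 0.574 to 2.61 and 0.460 to 1.32. The calls between the capillary gates did not survive the other treatment of double-gated cells: with the first gate met, the log2 folds of Jag2, Jag1 and Dll1 were 0.99, -1.19 and -1.55, in the same directions but all short of the limit. Jag1 lost its call with raised gate thresholds, and Dll1 without run 7 and after thinning to 2000 UMIs. Jag2 also lost its call with raised gate thresholds (log2 fold 1.08) and without run 3, run 4 or run 7, with log2 folds of 1.88, 1.93 and 1.83.

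**Figure D3:**
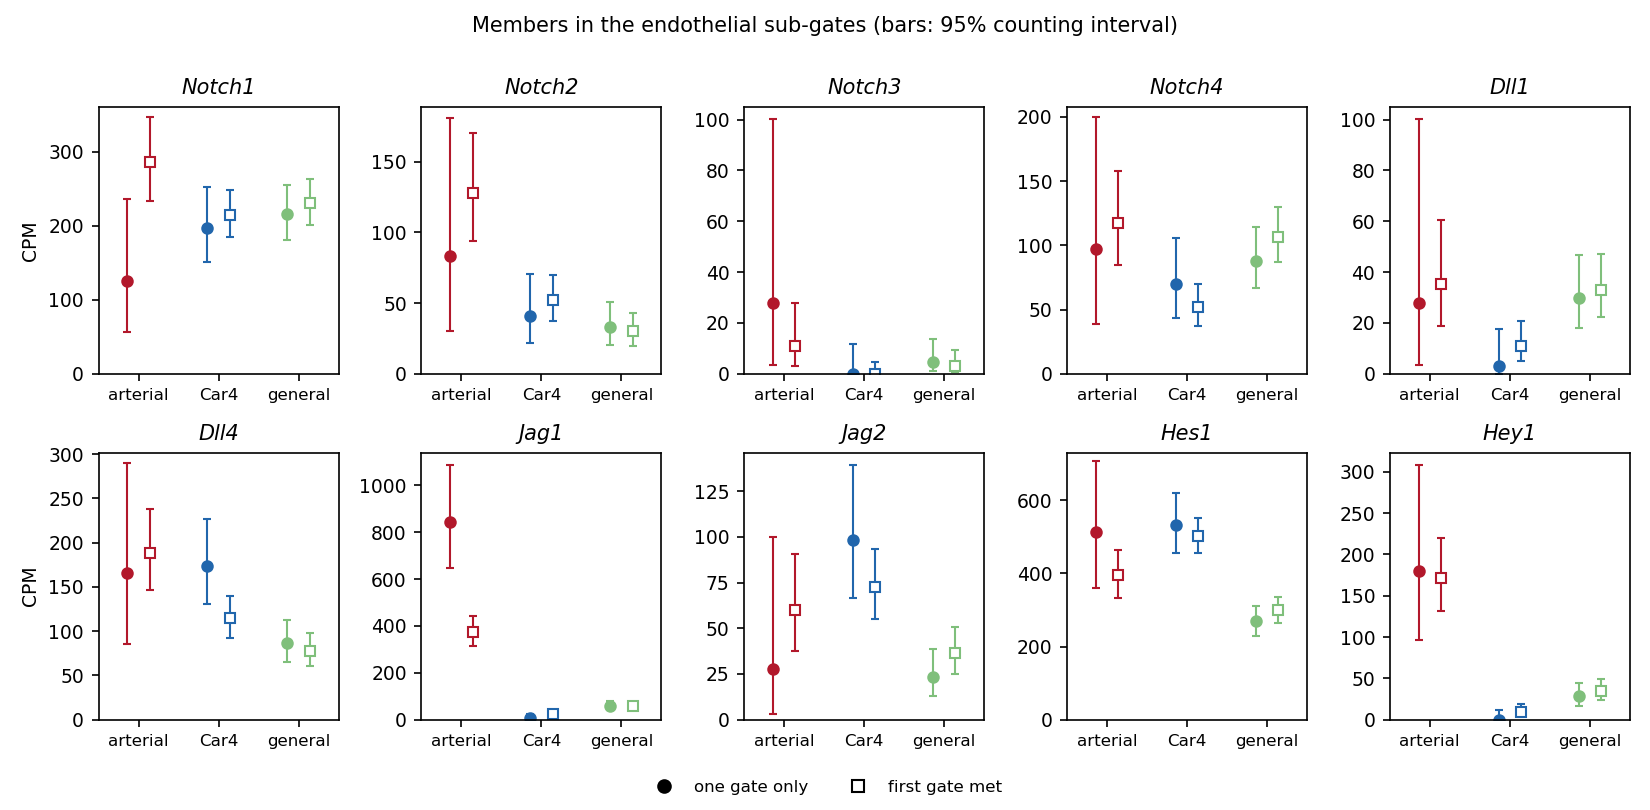
CPM of each gene in the arterial, Car4 capillary and general capillary gates; filled circles are cells that met the gates of a single compartment (19, 104 and 161 cells), open squares cells placed in the first gate they met (68, 188 and 223 cells), and bars are 95% counting intervals. Jag1 and Hey1 are highest in the arterial gate under both, and Jag2 is highest in the Car4 capillary gate.

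Outside the endothelium, Hes1 differed between the arms of the monocyte gate. The 2082 cells gated through Ace and Adgre4 alone, genes of patrolling monocytes, were set against the 942 gated through Ly6c2 and F13a1 alone, genes of classical monocytes. Hes1 had 267 CPM in the Ace/Adgre4 arm against 18.4 CPM in the Ly6c2/F13a1 arm, a fold of 14.5 (12.3 to 17.3). Over the 8 runs it was at 92.1 to 637 CPM with a median of 241 in the Ace/Adgre4 arm and at 5.88 to 77.5 CPM with a median of 30.2 in the Ly6c2/F13a1 arm, with no overlap. Hes1 was the only gene of the 10 called higher in this comparison, where 2.69% of all genes were called, and 0 were called lower, against 2.1% of all genes. The 348 cells that met both arms had 66.9 CPM.

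Notch2 had 398 CPM in the Ace/Adgre4 arm against 222 CPM in the Ly6c2/F13a1 arm, a fold of 1.79 (1.69 to 1.89), and was higher in 8 of 8 runs although the ranges over runs overlapped. Notch1 had 32.1 CPM against 54.9 CPM, 1.71 times lower (1.48 to 1.97), and was lower in 7 of 8 runs. The ligands were scarce in both arms: Dll1 had 0 UMIs in each, Dll4 0 against 1 UMI, and Jag1 7.77 against 7.44 CPM. Of the endothelial markers that no gate used, Kdr was at 1.03 CPM, Emcn at 0.842 CPM, Egfl7 at 3.65 CPM and Cd93 at 4.68 CPM in the Ace/Adgre4 arm, against 3.03, 0.252, 0.631 and 20.2 CPM in the Ly6c2/F13a1 arm. Pecam1, which leukocytes also express, was at 62.4 CPM against 17.8 CPM. Their part in the difference in Hes1 was not tested. The 65 cells of the arm without an Adgre4 UMI had 252 CPM of Hes1, close to the 268 CPM of the 2017 cells with one. Cells of the Ace/Adgre4 arm were shallower, with a median of 3605.5 UMIs against 5437.5.

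**Figure D4:**
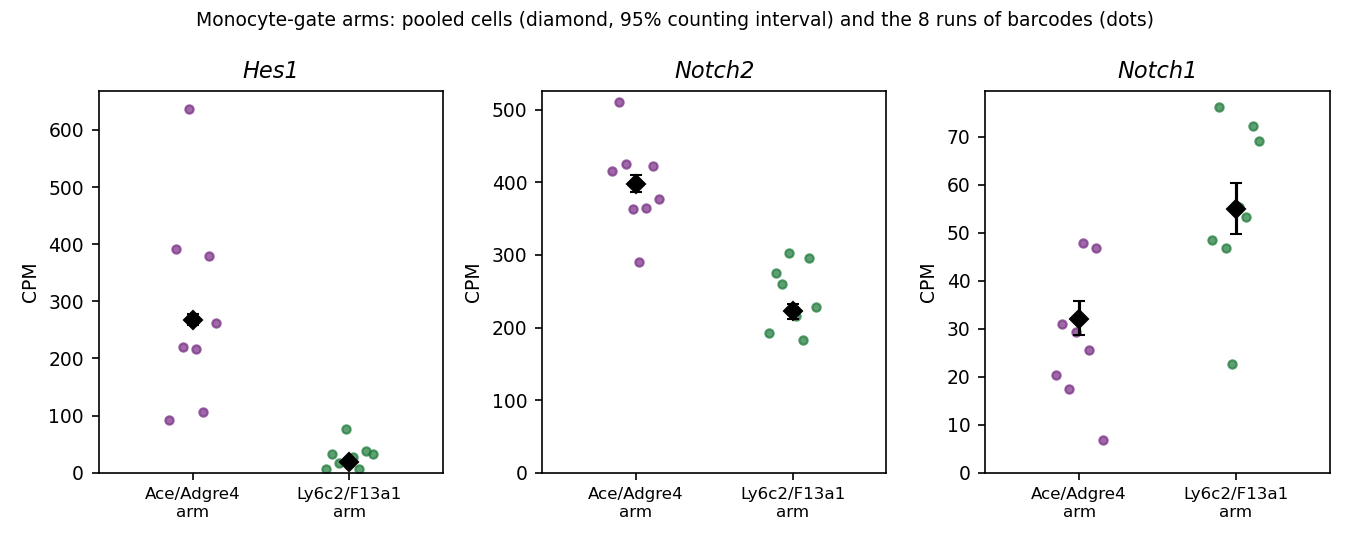
CPM of Hes1, Notch2 and Notch1 in the Ace/Adgre4 arm (left) and the Ly6c2/F13a1 arm (right) of the monocyte gate; diamonds are pooled cells with 95% counting intervals and dots the 8 runs of barcodes. Hes1 separates the arms in every run, at 92.1 to 637 CPM against 5.88 to 77.5 CPM, while the ranges of Notch2 and Notch1 overlap.

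Hes1 was low in several other leukocyte groups, with 3.33 CPM in the alveolar macrophage gate, 15.3 CPM in the T gate, 7.87 CPM in the neutrophil gate and 11.9 CPM in the conventional dendritic gate. The innate lymphoid 2 gate, with 69 cells, was higher at 313 CPM (265 to 366). The epithelial gates also held Hes1, with 249 CPM (215 to 287) in the AT1 gate and 130 CPM (119 to 140) in the AT2 gate. The ciliated and secretory gates had 687 CPM (561 to 833) and 672 CPM (541 to 826), in 18 cells each, of which 6 each also met another gate used within the cells outside all gates. Thinned to 2000 UMIs, UMIs of Hes1 were found in 42.3% of 97 AT1-gate cells, 40.0% of 265 endothelial-gate cells, 21.5% of 3029 monocyte-gate cells, 20.2% of 600 AT2-gate cells and 0.333% of 902 alveolar macrophage-gate cells. Before thinning the shares were 65.7%, 49.6%, 34.5%, 39.3% and 1.64%.

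Notch3 was found in a small set of cells marked by Dppa5a and Dppa3, genes known from pluripotent and germ cells. The 461 cells with at least 3 UMIs of these genes, whatever other gate they met, had 43.1 CPM of Notch3 against 1.03 CPM in all other cells, a fold of 42.0 (32.3 to 55.2). They held 256 of the 329 Notch3 UMIs. Over 5 runs Notch3 was at 37.0 to 49.9 CPM in these cells and at 0.327 to 2.61 CPM in the others, without overlap. The cells differ broadly from the rest, with 15.2% of all genes called higher, and of the 10 genes Notch3 was the only one called higher, while Notch2 and Dll4 were called lower, as were 13.8% of all genes. They had 388 CPM of Pou5f1, a transcription factor of pluripotent cells, against 2.38 CPM elsewhere, and 38.1 CPM of Ptprc against 849 CPM. Their depth was high, with a median of 8377 UMIs, and 222 of them were in run 6.

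These cells also held most of the Notch3 UMIs of the AT1 and T gates. The AT1 gate, the only non-endothelial gate group in which a gene of the 10 was called higher than in all other cells (7.32% of all genes), had 26.4 CPM from 20 UMIs. Of these, 19 were in the 10 AT1-gate cells that also met the Dppa5a gate, and the other 92 cells had 1.80 CPM from 1 UMI. In the T gate 26 of 28 UMIs were in 23 such cells. The 10 AT1-gate cells had a median depth of 19453.5 UMIs, against 5268 in the other 92. The 23 T-gate cells had 31126, against 4860 in the other T-gate cells. Whether these deep barcodes held more than 1 cell was not tested. Mural cells, in which Notch3 is known to act, were too few to describe: the mural gate held 3 cells, with 3 UMIs of Notch3. The arterial gate held 2 UMIs of Notch3, or 27.7 CPM (3.35 to 100.1).

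**Figure D5:**
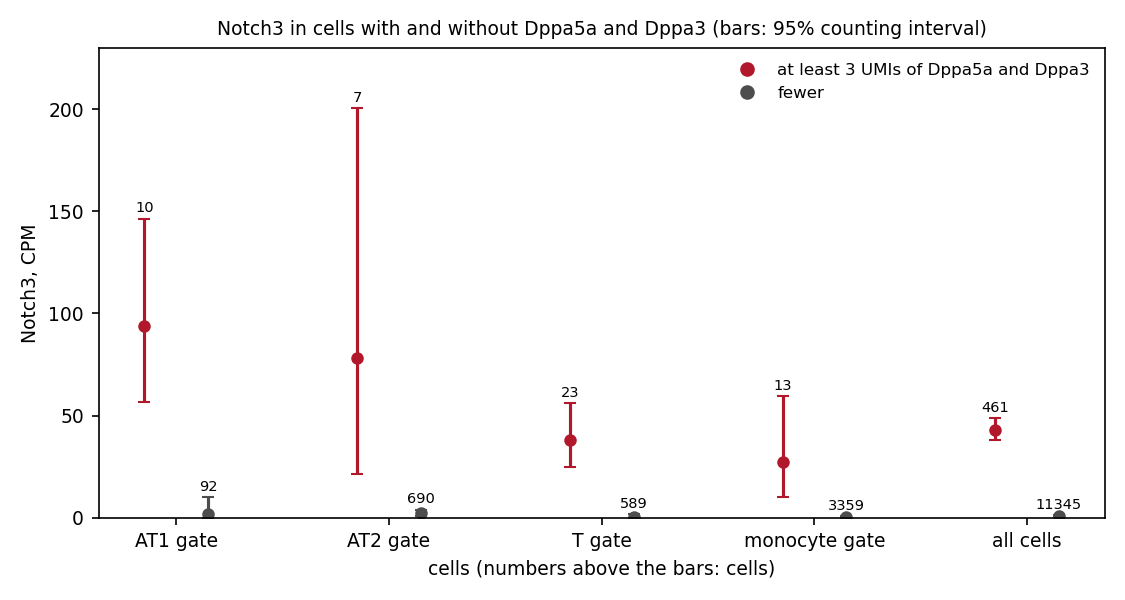
Notch3 in CPM in cells with at least 3 UMIs of Dppa5a and Dppa3 (red, left of each pair) and with fewer (grey, right), within the AT1, AT2, T and monocyte gates and over all cells; bars are 95% counting intervals and the numbers are cells. Over all cells the values are 43.1 and 1.03 CPM, and in the AT1 gate 93.7 and 1.80 CPM.

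Receptor and ligand transcripts were found together in a larger share of endothelial-gate cells than of cells in the other compartments' gates. Of the 413 endothelial-gate cells, 32.0% (27.5 to 36.7%) held a UMI of at least 1 of the 4 receptors and of at least 1 of the 4 ligands. The share was 10.0% (7.91 to 12.5%) of AT2-gate cells, 8.55% of alveolar macrophage-gate cells, 7.84% of AT1-gate cells, 4.08% of T-gate cells and 3.35% of monocyte-gate cells, all of which were deeper. A receptor UMI was found in 58.6% of endothelial-gate cells and 78.0% of monocyte-gate cells, and a ligand UMI in 49.4% and 3.77% of them. Within the endothelial gate, a Notch1 UMI was found in 55.5% (45.7 to 64.9%) of the 110 cells with a Dll4 UMI and in 38.0% (32.5 to 43.7%) of the 303 without one, with median depths of 2815.5 and 2248 UMIs. The part of depth in this difference was not tested.

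Of 39 other genes of the pathway, 36 had enough UMIs to be tested, and 6 were called higher and 2 lower in the endothelial gate than outside it, against 8.62% and 6.77% of all genes. The 6 were Numb, a cytoplasmic inhibitor of Notch, at 450 against 89.7 CPM, the feedback inhibitor Nrarp at 44.1 against 3.97 CPM, Mfng, a fringe enzyme that adds sugars to the receptors, at 52.5 against 11.2 CPM, the ubiquitin ligases Neurl1b (17.5 against 3.53 CPM) and Dtx1 (18.9 against 2.59 CPM), and the target Hey2 (10.5 against 0.124 CPM). Of the fringe genes 1 of 3, of the genes that activate ligands 1 of 4, of the inhibitors 1 of 4 and of the further targets 3 of 5 (Hey2, Nrarp and Dtx1) were called higher. The UMIs of Hey2 outside the gate fell short of the minimum over all cells that a gene needed to be tested. Hey2 reached that minimum only with UMIs of cells in the gate or of cells set apart, and the counts above include it. Of 9 genes of receptor cleavage 0 were called higher and Aph1c was lower, at 7.01 against 38.9 CPM.

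By gate group, 7 of the 36 were called higher in at least 1 of the 8. The share of all genes called higher in any of the 8 was not worked out, so this count is a description only. In the Car4 capillary gate 3 of 36 were called higher, against 5.7% of all genes: Mfng at 108 against 12.8 CPM in all other cells, Numb at 738 against 96.9 CPM and the coactivator Maml3 at 779 against 177 CPM. The general capillary gate also had 3 of 36 called higher, against 6.53% of all genes, with 48.7 CPM of Nrarp against 5.34 CPM and 22.0 CPM of Neurl1b against 3.76 CPM, with Numb at 393 against 97.1 CPM. Nrarp was the only one of the 36 called higher in the arterial gate (1.86% of all genes), at 138 CPM against 5.58 CPM, from 10 UMIs. Rbpj, the DNA-binding partner, and Maml3 were called lower there (1.28% of all genes), at 27.7 CPM against 168 and 180 CPM, each from 2 UMIs. Psen2, of the enzyme that cleaves the receptors, was called lower in the Car4 capillary gate (6.23% of all genes), and Aph1b, Aph1c and Dlk1 in the general capillary gate (6.15%). In the T gate 1 of 36 was called higher (3.59% of all genes), Dtx1 at 20.2 CPM against 1.91 CPM. In the AT2 gate it was Dlk1, a noncanonical ligand, at 291 CPM against 3.80 CPM (8.79% of all genes).

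The genes with the most similar pattern over the 8 gate groups and the cells outside all gates were found by Pearson correlation of log2(CPM + 10), among 10798 genes that reached 20 CPM in at least 1 of these 9 groups. For Dll4 they were Gata2 (r = 0.996), Pdgfd (0.996) and Cldn5 (0.995), which defines the endothelial gate. They were Lyve1 (0.999), Wscd1 (0.999) and Gm13889 (0.998) for Notch4, and Lama4 (0.998), Sparcl1 (0.996) and H19 (0.994) for Dll1. Hey1 was followed most closely by Grp (0.999), Vcam1 (0.999) and the arterial connexin gene Gja4 (0.998), and Jag1 by Hid1 (0.984), Fmo2 (0.979) and Cthrc1 (0.978). For Notch1 they were Arap3 (0.978), Sema6d (0.970) and Gcc1 (0.969), for Notch2 Tmem51 (0.975), Pbxip1 (0.965) and Zbtb7b (0.964), and for Notch3 Alpk3 (0.979), Dpp6 (0.977) and Ntmt1 (0.962). For Jag2 they were Rapgef3 (0.985), Btbd3 (0.985) and Sema3f (0.978), and for Hes1 Ckap4 (0.982), Rbpms (0.944) and Vcl (0.943). Among the 10 genes, Dll4 was most like Notch4 (0.984) and Jag1 most like Hey1 (0.958). In the arterial gate 2 UMIs, or 27.7 CPM, were enough to reach the limit of 20 CPM. The pattern of Notch3 rests on few UMIs, with 2 in the arterial gate and 20 in the AT1 gate. With 9 points that share libraries, these correlations are descriptions only.

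In the annotation (GENCODE M21, build mm10) the receptor genes lie at chr2:26457903-26516663 (Notch1, minus strand), chr3:98013527-98150361 (Notch2, plus), chr17:32120820-32166852 (Notch3, minus) and chr17:34564268-34588503 (Notch4, plus). The ligand genes lie at chr17:15367354-15376872 (Dll1, minus), chr2:119325784-119335962 (Dll4, plus), chr2:137081456-137116644 (Jag1, minus) and chr12:112907819-112929776 (Jag2, minus), and the targets at chr16:30064384-30067796 (Hes1, plus) and chr3:8663359-8667256 (Hey1, minus). Some of the genes overlap others on the opposite strand, and whether the counting used strand is not given in the sources used here. Notch3 overlaps Gm17276, which had 310 UMIs in the table and was at 5.22 CPM in the Dppa5a-marked cells against 3.92 CPM in all other cells. Dll4 overlaps Gm14207 (48 UMIs) at its start, and Notch1 overlaps 0610009E02Rik (163 UMIs) at its end. Reads of such pairs may be shared.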

How the data were processed

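The authors deposited 1 table of UMI counts without normalization, from a droplet-based 3' kit per the labels' protocols. Per the submitters' processing notes, Cell Ranger 1.3.1 was used with mm10. The settings for strand and introns were not given in the sources used. In all, the table holds 32285 genes and 11806 cells, the lowest number of genes in a cell is 800, and 0 columns were left unused. UMI counting removes amplification copies but not free RNA, which was not subtracted.

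Cells were gated on UMIs: Cdh5 and Cldn5 at least 2 (endothelial), Sftpc at least 3% of a cell's UMIs, Rtkn2 at least 3, Ear1 and Marco at least 2, Ly6c2 and F13a1 at least 3 or Ace and Adgre4 at least 2, Cd3e and Trac at least 2. Endothelial sub-gates needed 2 UMIs. Counts were summed per group and divided by the group's total (CPM). Intervals are exact Poisson for CPM, Clopper-Pearson for shares and conditional binomial for folds. The comparison of hyperoxia with air that was planned could not be made. Scrublet in scanpy 1.11.5 marked 56 cells, or 0.474%, as doublets, which was taken as a failed threshold, so doublets were kept in the main values and the 193 cells with the highest scores were left out as an alternative. The call rule was tested on simulated data. The genes, lists and gates were chosen with earlier results of these data known. All 10 genes are named, and of 39 other pathway genes those called higher in a gate group. Hey2 and Aph1c were named after their values were seen, and the comparisons of the capillary gates, of the monocyte arms and of Dppa5a-marked cells were added after the data were seen. Python 3.11.15, numpy 2.4.6, scipy 1.17.1 and pandas 2.3.3 were used.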

Additional observations from a re-analysis of the deposited data

How the results depend on the processing

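No paired analysis was possible because no column of the table could be matched to a library. The count of 8 genes higher in the endothelial gate was 7, without Hes1, after thinning to 2000 UMIs and without run 7, and 8 under the other alternatives, and no called fold changed sign under any of them. The count of 2 for the arterial gate was 1 with cells thinned to 2000 UMIs and ranged over 1 to 2 with each run left out. The count of genes called higher in their leading gate group, 7, was 4 after thinning and 6 to 9 with each run left out. The leading group was picked for being highest, and no share of all genes was worked out for it. This count is therefore a description only. Between the Car4 and general capillary gates, the count of 1 higher was 0 with the first gate met, 0 with raised gate thresholds, 0 without Dppa5a-marked cells, 2 at a fold of 2 and 0 to 1 with each run left out. The count of 2 lower was 0 with the first gate met, 1 after thinning, 3 (with Hey1) at a fold of 2 or with the mean over cells, and 1 to 2 with each run left out. With raised gate thresholds it was 2, Dll1 and Hey1. The count of 1 higher in the Ace/Adgre4 arm was 1 throughout. Shares of all genes were worked out only under the main settings, so the counts under the alternatives have none beside them. Causes of these shifts were not tested. Thinning left 15 of the 19 arterial-gate cells. Leaving out cells with Ptprc or with Dppa5a and Dppa3 was chosen after seeing the data. Of 600 log2 folds recomputed for single genes, 32 fell outside their counting interval. Dll1 and Hey1 rest on 77 and 142 UMIs in the whole table.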

Other observations

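Hes1 varied between runs of barcodes in endothelial and monocyte cells alike. In the endothelial gate, the 6 runs with at least 10 such cells (runs 1, 3, 4, 5, 6 and 7) had 234, 355, 748, 381, 64.4 and 594 CPM of Hes1. In the Ace/Adgre4 arm of the monocyte gate, the same runs had 92.1, 219, 637, 216, 105 and 379 CPM. Among these 6, run 4 was highest in both cell groups and run 7 next in both. In the AT2 gate the 8 runs kept within 83.9 to 184 CPM. The runs carry no label of oxygen or library, so these values are given singly and no groups were formed from them.

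In the endothelial gate Hey1 also differed between runs, with 0, 0, 74.8, 56.1, 3.22 and 55.3 CPM in runs 1, 3, 4, 5, 6 and 7. In that order the runs held 51, 11, 68, 63, 58 and 149 endothelial-gate cells. The arterial-gate cells among them numbered 2, 0, 3, 7, 1 and 6, and their part in the values of Hey1 was not tested. These values too are given singly.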
